A study of Mus musculus with 6 samples.

Results

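The MHC class I pathway was followed through 10 genes in inflamed mouse colon: H2-K1 and H2-D1 (the class I heavy chains), B2m (the light chain), Tap1, Tap2 and Tapbp (peptide transport and loading), Psmb8, Psmb9 and Psmb10 (the immunoproteasome subunits) and Nlrc5 (the transcriptional activator of the class). The members were the rows of the deposited count table that carried these gene symbols, and all 10 were found among 18477 rows. Colon RNA came from male C57BL/6 mice, 6 to 8 weeks old, and every mouse drank 2% dextran sulfate sodium (DSS), which injures the colon epithelium, for 7 days. The DSS group (n = 3) received PBS by gavage daily for 14 days, and the DSS+BV group (n = 3) received *B. vulgatus*, a gut commensal bacterium, in the same way. Both groups had drunk DSS, and mice without DSS were not analysed here, so no value below is a level in healthy colon. Each library was 1 mouse, mice had been randomly allocated to the groups, and values of a group are given in the order of mice 1, 2 and 3. Of the 14579 genes that passed the filter on low counts and were tested, 13 were called, all lower in the DSS+BV group.

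Almost every nucleated cell shows pieces of its own proteins on class I molecules, where CD8 T cells read them. The proteasome cuts proteins into peptides, TAP1 and TAP2 pump the peptides into the endoplasmic reticulum, tapasin (Tapbp) holds the empty class I molecule at the transporter, and the heavy chain then travels with beta-2-microglobulin to the surface. Interferon gamma is known to raise the whole set, to replace 3 catalytic subunits of the standard proteasome by PSMB8, PSMB9 and PSMB10, and to raise NLRC5, which switches on class I promoters. In the intestine both the epithelium and the immune cells below it carry this machinery.

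Of the members, 7 lie on mouse chromosome 17 (GRCm38.p6, the build named in the submitters' processing notes), in the major histocompatibility complex. Tapbp spans 33919478 to 33929290 and H2-K1 33996012 to 34000619. Psmb9 (34182030 to 34187330, minus strand), Tap1 (34187556 to 34197225), Psmb8 (34198195 to 34201454) and Tap2 (34204479 to 34216321) follow each other, and the RefSeq starts of Psmb9 and Tap1 point away from each other with 225 bases between them. H2-D1 lies at 35263094 to 35267497. Outside the complex, B2m is on chromosome 2 (122147687 to 122153082), and Nlrc5 (94434335 to 94527272) and Psmb10 (105935728 to 105938392) are on chromosome 8.

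Promoter windows (250 bases before to 50 after the start, RefSeq, GRCm38.p6) were at hand for 8 of the 10 members, without Tap2 and Nlrc5. The 150 bases upstream of the start are shown for the 3 chains of the surface molecule and for Tap1, since class I promoters share the short boxes at which NLRC5 and interferon-induced factors act. Capitals mark TGACG (the core of the X2 box), ATTGG or CCAAT (the core of the Y box on either strand), the interferon-stimulated response element and GAANNGAAA (a shorter spelling of it), each on either strand. The windows are at chr17:34000348-34000497 (minus strand) for H2-K1, chr17:35262944-35263093 (plus) for H2-D1, chr2:122147537-122147686 (plus) for B2m and chr17:34187406-34187555 (plus) for Tap1. H2-K1 had 2 windows, from 2 annotated starts, and the first is shown. Both lie inside the span given above for the gene, whose outer end on this strand is 34000619. The H2-K1 bases are thus upstream of 1 annotated start and not of the whole gene.
H2-K1: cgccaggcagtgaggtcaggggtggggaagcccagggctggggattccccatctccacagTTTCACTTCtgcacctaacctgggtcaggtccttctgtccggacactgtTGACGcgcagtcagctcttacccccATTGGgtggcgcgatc
H2-D1: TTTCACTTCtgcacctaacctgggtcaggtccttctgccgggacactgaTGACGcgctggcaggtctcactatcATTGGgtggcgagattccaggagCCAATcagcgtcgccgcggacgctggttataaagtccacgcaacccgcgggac
B2m: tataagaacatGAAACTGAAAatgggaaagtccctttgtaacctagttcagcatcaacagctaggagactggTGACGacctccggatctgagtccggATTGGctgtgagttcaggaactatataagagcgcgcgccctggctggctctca
Tap1: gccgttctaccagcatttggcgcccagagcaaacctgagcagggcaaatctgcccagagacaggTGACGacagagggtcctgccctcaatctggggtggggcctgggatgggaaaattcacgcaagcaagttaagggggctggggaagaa
In H2-K1, H2-D1 and B2m, TGACG was followed by ATTGG with the same distance, 25 bases from first base to first base. TGACG followed by ATTGG at 15 to 30 bases was present in 0.314% of all 32851 promoter windows (103), and in 3 of the 8 members with a window. Tap1 held TGACG (20.8% of all windows, either strand) without ATTGG behind it. GAANNGAAA, in 7.52% of all windows, was in H2-K1 and H2-D1 on the reverse strand with the same letters, TTTCACTTC. The full response element, in 3.44% of all windows, was in B2m as GAAACTGAAA. These are matches of letters, searched on both strands except for the spaced pair, and the pair and the shorter spelling were chosen after the windows had been seen.

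No difference between the groups passed the test in any member. With edgeR's quasi-likelihood test and Benjamini-Hochberg adjustment over all tested genes, calling genes with an adjusted p under 0.05 that also differed by over 1 on the log2 scale, 0 of 10 members were called in either direction, where 0.0892% of all tested genes were called. At an unadjusted p under 0.05 there were also 0 members, against 12.5% of all tested genes (9.12% lower and 3.4% higher), and DESeq2 called 0 members, against 2.01% of the genes it tested. The adjusted p-values of the members from edgeR lay between 0.744 and 0.992. The log2 fold changes, DSS+BV against DSS, ran from -0.32 (Psmb8) to 0.15 (Psmb10), with a median of -0.074 beside -0.011 over all tested genes. In 0 of 10 members were the groups apart without overlap, which happened in 17.6% of all tested genes. The 95% interval of the fold change stayed inside 2-fold in both directions for 5 members (H2-K1, B2m, Tap2, Tapbp and Psmb10). For the other 5 it reached past a 2-fold lower level, and for Tap1 and Nlrc5 also past a 2-fold higher level, so that a change of that size lay within the error for these genes with 3 mice per group.

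**Figure D1:**
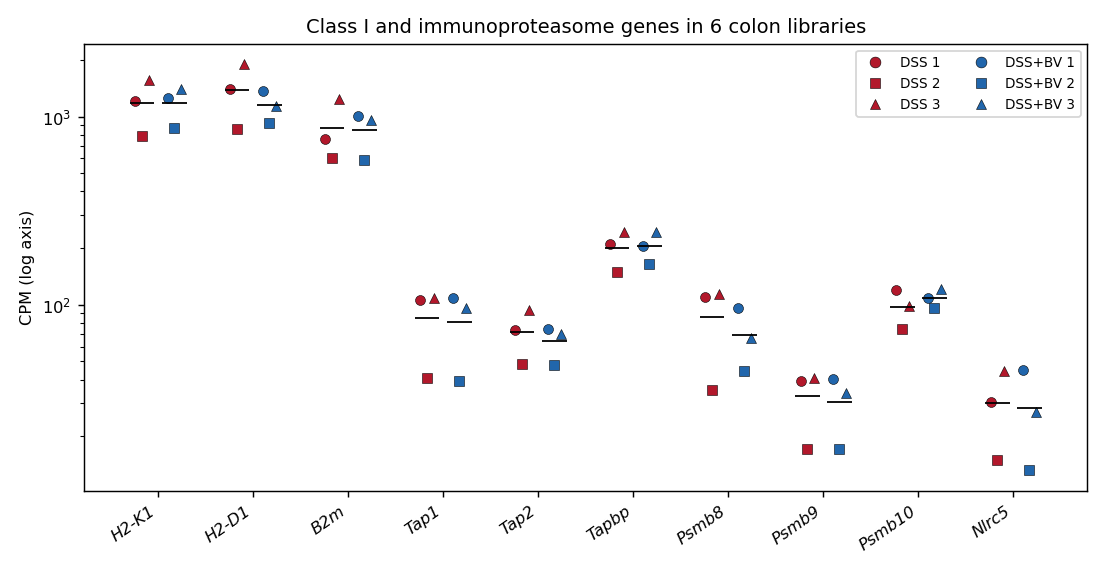
CPM of the 10 members in each of the 6 libraries on a log axis, DSS in red and DSS+BV in blue, with the mouse number as the symbol and the arithmetic mean of 3 mice as a bar. Red and blue points overlap in every gene, and the squares (DSS 2 and DSS+BV 2) lie lowest of their group in all 10 members.

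H2-K1 (Entrez gene 14972) encodes a heavy chain that presents peptide to CD8 T cells. It was at 1218, 784 and 1558 CPM (the count scaled by the TMM-adjusted library total) in the DSS mice and at 1257, 873 and 1406 CPM in the DSS+BV mice. The 2 means, 1187 ± 388 and 1179 ± 275 CPM (SD, n = 3 each), were almost level, and mouse 2 was the lowest of each group. The log2 fold change was -0.0098 (standard error 0.31, 95% interval -0.74 to 0.72, edgeR adjusted p = 0.992). H2-D1 (Entrez gene 14964), the second classical heavy chain, was at 1409.8, 858 and 1896 CPM in the DSS libraries and at 1368, 927 and 1144 CPM in the DSS+BV libraries. Its log2 fold change was -0.28 (standard error 0.32, 95% interval -1.03 to 0.48, edgeR adjusted p = 0.744), and the lowest DSS value lay below all 3 DSS+BV values. Reads of both heavy chains had been divided with other genes in at least 1 library, as the values that are not whole numbers show, so that the split between H2-K1, H2-D1 and their near relatives is uncertain.

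B2m (Entrez gene 12010) encodes the light chain that every class I heavy chain needs for folding and for export. It was at 756, 600.2 and 1244.5 CPM in the DSS mice and at 1012, 588 and 955 CPM in the DSS+BV mice. DSS 3 was the highest library and both second mice were the lowest of their groups, so the groups overlapped from end to end. The log2 fold change was -0.026 (standard error 0.34, 95% interval -0.83 to 0.78, edgeR adjusted p = 0.982). B2m has no close copy in the table, and all its values were whole numbers.

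Tap1, Tap2 and Tapbp had lower CPM values than the chains of the class I molecule, and Tap1 spread the most of the 3 between mice. Tap1 (Entrez gene 21354) was at 106, 40.6 and 108 CPM in the DSS mice and at 108, 39.3 and 96.1 CPM in the DSS+BV mice. In each group 1 mouse stood well below the others, DSS 2 and DSS+BV 2, and the highest library was 2.67 times the lowest in the DSS group and 2.75 times in the DSS+BV group. The log2 fold change of Tap1 was -0.063 (standard error 0.49, 95% interval -1.22 to 1.10, edgeR adjusted p = 0.968). Tap2 (Entrez gene 21355), the partner chain of the transporter, was at 73.5, 48.3 and 93.5 CPM in the DSS libraries and at 74.5, 48.0 and 69.9 CPM in the DSS+BV libraries, with a log2 fold change of -0.16 (edgeR adjusted p = 0.835). Tapbp (Entrez gene 21356), tapasin, was at 211, 149 and 242 CPM in the DSS libraries and at 204, 166 and 243 CPM in the DSS+BV libraries. Its log2 fold change was 0.026 (standard error 0.23, 95% interval -0.52 to 0.57, edgeR adjusted p = 0.972), and it spread less between mice than Tap1, by 1.63 and 1.47 times in the 2 groups.

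Psmb8 (Entrez gene 16913), the chymotrypsin-like subunit of the immunoproteasome, had the largest log2 fold change in size among the members. It was at 110.4, 35.1 and 113 CPM in the DSS mice and at 96.3, 44.3 and 66.4 CPM in the DSS+BV mice. The lowest library of all 6 was DSS 2, a DSS mouse, and the log2 fold change was -0.32 (standard error 0.48, 95% interval -1.47 to 0.82, edgeR adjusted p = 0.804). Psmb9 (Entrez gene 16912), which is transcribed away from Tap1 across the 225 bases between them, was at 39.5, 17.2 and 41.1 CPM in the DSS libraries and at 40.2, 17.1 and 34.1 CPM in the DSS+BV libraries. Like Tap1 it had a low second mouse in each group, at nearly the same level in both, and its log2 fold change was -0.096 (edgeR adjusted p = 0.941). Psmb10 (Entrez gene 19171), the trypsin-like immunoproteasome subunit and the one encoded outside the complex, was at 119, 74.7 and 98.4 CPM in the DSS libraries and at 108, 96.0 and 121 CPM in the DSS+BV libraries. It spread least of the 3, by 1.60 times in the DSS group and 1.26 times in the DSS+BV group, and its log2 fold change was 0.15 (standard error 0.20, 95% interval -0.32 to 0.62, edgeR adjusted p = 0.774).

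Nlrc5 (Entrez gene 434341) encodes the activator that acts on class I promoters as CIITA does on class II promoters. It was at 30.6, 14.98 and 44.7 CPM in the DSS mice and at 45.1, 13.2 and 27.0 CPM in the DSS+BV mice. The 2 lowest libraries were again the second mice, and within the DSS+BV group the highest value was 3.42 times the lowest, the widest spread among the members in that group. The log2 fold change was -0.084 (standard error 0.53, 95% interval -1.35 to 1.18, edgeR adjusted p = 0.961).

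**Figure D2:**
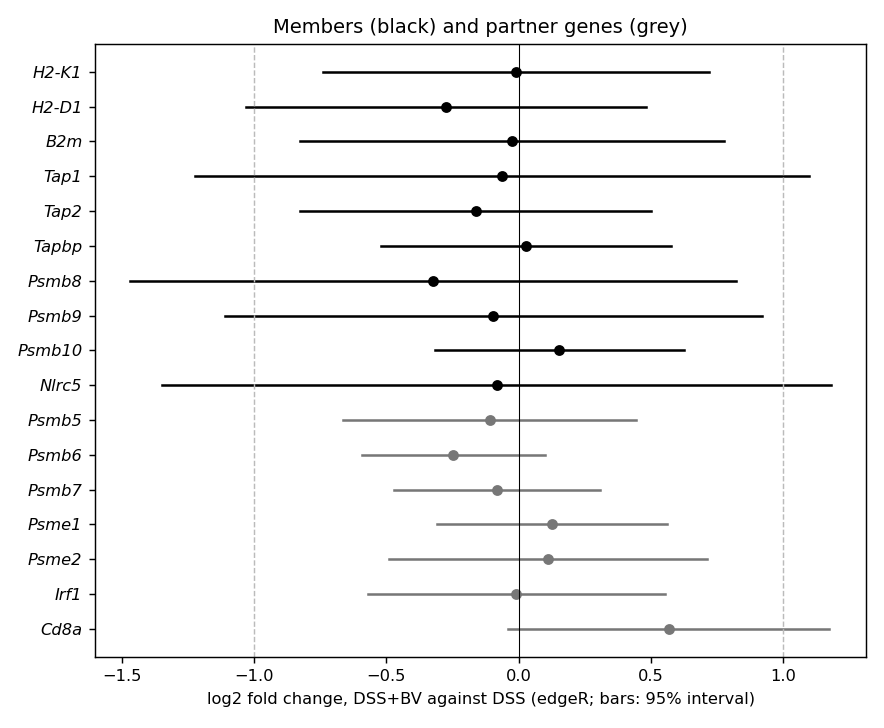
Log2 fold changes of DSS+BV against DSS with 95% intervals from edgeR for the 10 members (black) and 7 partner genes (grey), with dashed lines at a 2-fold change. All intervals include 0, and those of Nlrc5 and Tap1 are the widest among the members.

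With 1 library left out in turn, 0 members were called in any of the 6 fits, but the signs were not stable. Psmb8 stayed below 0 (-0.68 to -0.077) and Psmb10 above it (0.0097 to 0.32). The other 8 members changed sign in at least 1 of these fits. Without DSS 3, H2-D1 stood at 0.015, B2m at 0.33, Tap2 at 0.074 and Nlrc5 at 0.32, and the median of the members ran from -0.38 to 0.18 over the 6 fits.

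Levels were compared between members per kilobase of exon (union of the protein-coding transcripts, GENCODE M21), since longer transcripts give more reads. In the DSS group B2m was the highest at 1008 ± 391 CPM per kb (SD, n = 3), before H2-K1 at 717 ± 234 and H2-D1 at 660 ± 247. Then came Psmb10 at 74.3 ± 17.02, Tapbp at 69.2 ± 16.4, Psmb8 at 53.0 ± 27.3, Tap1 at 28.7 ± 12.98, Psmb9 at 24.1 ± 9.85, Tap2 at 20.9 ± 6.58 and Nlrc5 at 3.71 ± 1.83 CPM per kb. The order was the same in the DSS+BV group, from 990 ± 268 CPM per kb for B2m to 3.50 ± 1.97 for Nlrc5. In each group, 2 of the 9 steps between neighbours were larger than the SDs of both genes together, that from H2-D1 to Psmb10 and that from Tap2 to Nlrc5. At the other steps the gap was no larger than the SDs of both genes together. The genes were measured in the same mice, and this rule does not compare neighbours within a mouse, so it cannot show that their levels were equal.

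The members ranked the mice alike in both groups. DSS 2 was the lowest DSS library in 10 of 10 members and DSS+BV 2 the lowest DSS+BV library in 10 of 10, an arrangement that was found in 9.54% of all tested genes. DSS 3 was the highest DSS library in 9 of 10, and in the DSS+BV group the highest library was DSS+BV 1 in 7 members and DSS+BV 3 in 3. The mean deviation of the members from their own 6-library mean on the log2 CPM scale was 0.24, -0.63 and 0.48 in the DSS mice and 0.31, -0.55 and 0.15 in the DSS+BV mice. The median spread within a group was 2.14 times in the DSS group and 1.67 times in the DSS+BV group, against 1.42 and 1.24 times over the 10426 tested genes with a mean of at least 10 CPM. Tap1, Psmb8, Psmb9 and Nlrc5 spread by over 2-fold in both groups, as 6.91% of these genes did. The shared number 2 names no known link between the 2 mice, and the pattern was noticed in these data, so that these shares are a description.

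**Figure D3:**
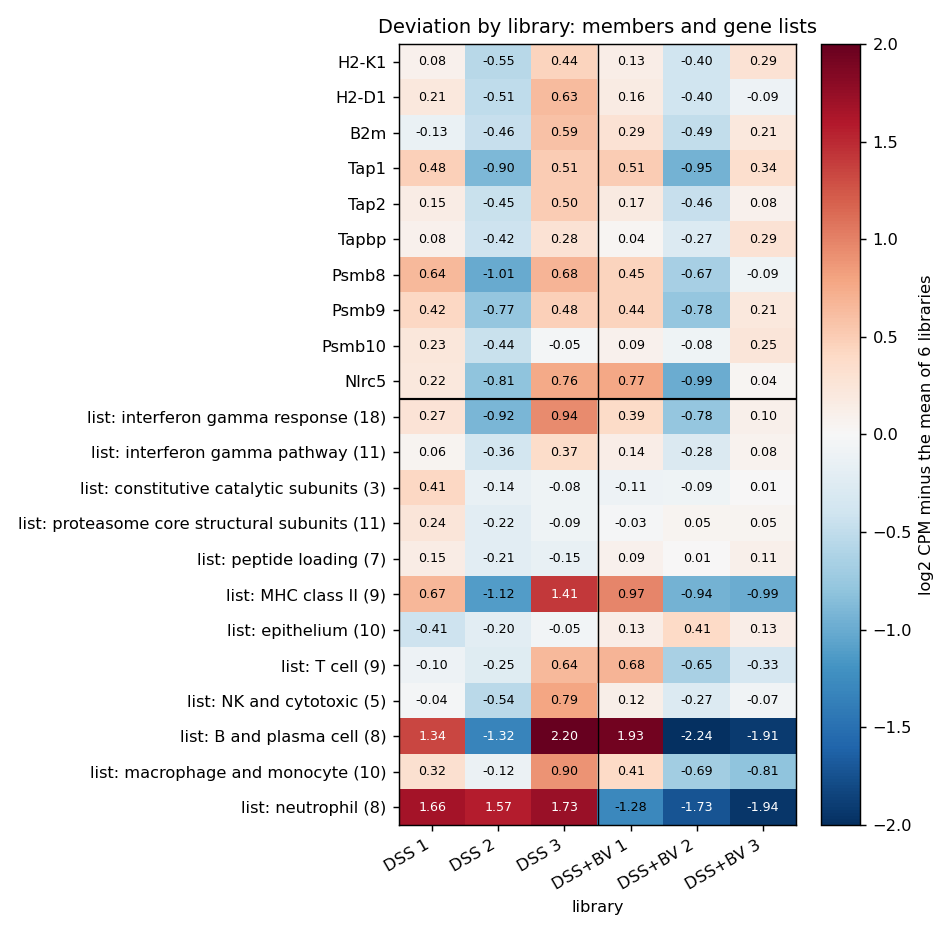
Log2 CPM minus the mean of 6 libraries, for the 10 members (above the line) and as the mean over 12 gene lists (below it, tested genes in brackets), with DSS libraries to the left of the vertical line. DSS 2 and DSS+BV 2 are blue for the members and for the interferon gamma response list, whose means there were -0.92 and -0.78.

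Most other genes of the interferon gamma response list were laid out over the mice in a similar way. The list held 15 tested genes that are not members, among them guanylate-binding proteins, immunity-related GTPases and chemokines. In 13 of the 15, DSS 2 and DSS+BV 2 were the lowest of their groups, against 9.54% of all tested genes. Over all 18 tested genes of the list, with Tap1, Psmb8 and Psmb9 among them, the mean deviations were 0.27, -0.92 and 0.94 in the DSS mice and 0.39, -0.78 and 0.10 in the DSS+BV mice. Of these 18 genes 0 were called, and the median log2 fold change was -0.14. Gbp5 and Gbp2, the guanylate-binding proteins of smallest p on this list, had log2 fold changes of -1.37 (edgeR adjusted p = 0.425) and -0.85 (edgeR adjusted p = 0.615), and the groups overlapped in both. Without DSS 3 these were -0.72 and -0.25, and without DSS+BV 1 Gbp2 was at -1.38. Ifng itself was removed by the filter, with 4, 2 and 3 counts in the DSS mice and 0, 2 and 2 counts in the DSS+BV mice, too few to tell the groups apart. Irf1, the transcription factor that binds interferon-stimulated response elements, was at 149.7, 130.4 and 234 CPM and at 173, 154 and 183 CPM (log2 fold change -0.0094, edgeR adjusted p = 0.991). In the pathway list of receptors, kinases and factors, 0 of 11 tested genes were called, and those of smallest p were Ifngr1, a chain of the interferon gamma receptor, at a log2 fold change of -0.42, and Socs1, a feedback inhibitor, at -0.46. Without DSS 3 these were -0.19 and -0.17, and Socs1 was at -0.75 without DSS 2 and -0.25 without DSS+BV 2.

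The 10 tested genes outside the members whose log2 CPM followed the mean standardised profile of the members most closely over the 6 libraries were Oasl2, Irf9, Rtp4, Oas1g, Isg15, Parp9, Ntf3, Dhx58, Daxx and Uba7. Their Pearson correlations with the profile ran from 0.992 for Oasl2 to 0.982 for Uba7, over 6 libraries that share tissue and treatment, and they were picked as the highest of all tested genes. Among the members the correlations with the same profile ran from 0.728 for Psmb10 to 0.983 for Psmb9. None of the 10 closest genes is on the interferon gamma response list. The 15 genes of that list outside the members correlated less closely, from 0.640 for Gbp5 to 0.949, and Irf1 was at 0.783. Which signal, if any, the shared layout follows was not tested. Oasl2 was at 181, 44.9 and 251 CPM in the DSS mice and at 184, 47.0 and 199.9 CPM in the DSS+BV mice. Isg15 was at 55.7, 7.21 and 75.8 CPM and at 41.6, 8.28 and 53.6 CPM. In both genes the second mouse of each group stood far below the others.

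The subunits that the immunoproteasome replaces did not share this layout. Psmb5, Psmb6 and Psmb7 are the constitutive counterparts of Psmb8, Psmb9 and Psmb10. Psmb5 was at 107, 64.5 and 63.9 CPM in the DSS mice and at 65.7, 71.0 and 81.6 CPM in the DSS+BV mice, high in DSS 1 alone. Psmb6 was at 86.5, 63.1 and 72.2 CPM in the DSS libraries and at 61.9, 62.1 and 62.8 CPM in the DSS+BV libraries. Its groups lay apart by a small step (log2 fold change -0.25, standard error 0.14, edgeR adjusted p = 0.525). Psmb6 was the 1 gene of these 3 that lay lower without overlap, against 11.3% of all tested genes. Psmb7 was at 133, 96.4 and 96.1 CPM and at 103, 98.9 and 106 CPM. In 0 of the 3 were the second mice lowest in both groups, and in 1 of the 11 structural core subunits they were. In most of these 11, however, DSS 2 was the lowest DSS library. Within a group, the highest library was at most 1.90 times the lowest among these 14 subunits.

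Ratios within a library do not depend on its scaling and set each immunoproteasome subunit against the one it replaces. The ratio of Psmb8 to Psmb5 counts was 1.03, 0.545 and 1.78 in the DSS mice and 1.47, 0.624 and 0.814 in the DSS+BV mice. The highest and the lowest ratio were both in the DSS group. The ratio of Psmb9 to Psmb6 was 0.457, 0.273 and 0.569 in the DSS libraries and 0.649, 0.276 and 0.543 in the DSS+BV libraries, low in both second mice. That of Psmb10 to Psmb7 was 0.894, 0.774 and 1.02 in the DSS libraries and 1.05, 0.971 and 1.14 in the DSS+BV libraries, with 1 DSS library above the lowest DSS+BV library. The differences in mean log2 ratio, DSS+BV minus DSS, were -0.14, 0.15 and 0.24, with two-sided exact permutation p-values of 0.8, 0.7 and 0.2 (0.8, 0.8 and 0.6 after Benjamini-Hochberg adjustment over the 3 ratios). With 3 mice against 3 the smallest p this test allows is 0.1. The difference of the first ratio became 0.28 without DSS 3 and 0.13 without DSS+BV 2, and that of the second became -0.15 without DSS 2 and -0.095 without DSS+BV 1.

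**Figure D4:**
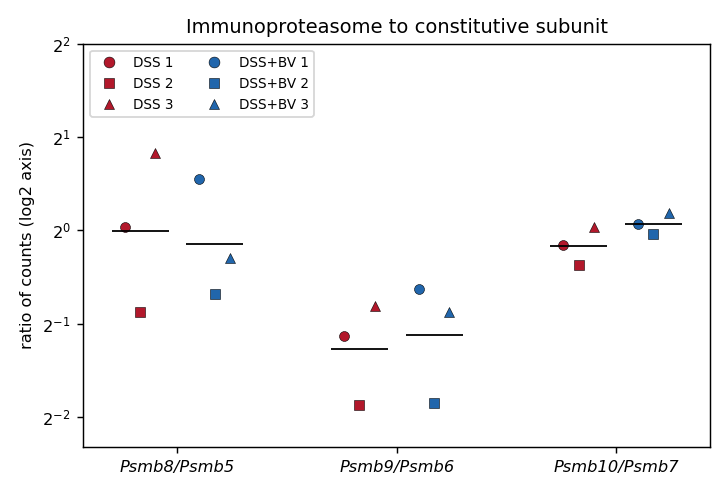
Ratio of the counts of each immunoproteasome subunit to those of its constitutive counterpart in the 6 libraries, on a log2 axis, with bars at the mean of the log2 ratios. Groups overlap in all 3 ratios, and the squares (DSS 2 and DSS+BV 2) are lowest of their group throughout.

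The other parts of the proteasome and of peptide loading were close between the groups. Of 9 tested activators and assembly factors 0 were called. Psme1 and Psme2, the PA28 cap subunits that interferon gamma also raises, had log2 fold changes of 0.13 (edgeR adjusted p = 0.798) and 0.11 (edgeR adjusted p = 0.882). In both genes DSS 2 and DSS+BV 2 were the lowest of their groups, as in the members. Psme4, the PA200 cap, had 0.24 and Psmg2, an assembly chaperone, had -0.20, and these were the genes of smallest p on the list. Psme4 was the 1 gene of the 9 that lay higher without overlap, against 6.37% of all tested genes, and 0 lay lower. Among 11 structural core subunits 0 were called, and Psma4 (0.19) and Psma7 (-0.18) had the smallest p. Of the 11, 1 lay lower without overlap (Psma7), against 11.3% of all tested genes. Another 2, with Psma4 among them, lay higher without overlap, against 6.37%. Of 7 loading genes 0 were called. Erap1, the aminopeptidase that trims peptides in the endoplasmic reticulum, was at 0.25 (edgeR adjusted p = 0.573) and Pdia3, a thiol oxidoreductase of the loading complex, was at 0.20 (edgeR adjusted p = 0.612), on the log2 fold change scale. Among 11 tested factors that sit on class I promoters or act beside them 0 were called, and Rfxap, a subunit of the RFX complex, was at -0.26 and Rela, a subunit of NF-kappa B, at -0.16. Rfxap was the 1 gene of these 11 that lay lower without overlap, against 11.3% of all tested genes.

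The largest differences in the class were among the less classical heavy chains, where 0 of 16 tested genes were called. At an edgeR unadjusted p under 0.05 there were 2 lower and 2 higher, against 9.12% and 3.4% of all tested genes. Cd1d1, which presents lipids to natural killer T cells, was at 7.31, 11.0 and 12.8 CPM in the DSS mice and at 6.73, 3.31 and 3.41 CPM in the DSS+BV mice. Every DSS+BV value lay below every DSS value, at a log2 fold change of -1.21 (standard error 0.38, 95% interval -2.11 to -0.31), and the edgeR adjusted p was 0.331. Hfe, the class I-like regulator of iron uptake, also had no overlap, with 22.5, 19.4 and 23.9 CPM in the DSS libraries and 17.8, 13.3 and 13.8 CPM in the DSS+BV libraries (log2 fold change -0.55, edgeR adjusted p = 0.355). The third gene without overlap was Mr1, named after its values had been seen, which presents microbial vitamin metabolites, at 7.72, 8.14 and 11.0 CPM and at 6.86, 6.18 and 5.25 CPM (edgeR adjusted p = 0.410). These 3 of 16 genes compare with 11.3% of all tested genes that lay apart in the lower direction, and 0 of 16 with 6.37% in the higher direction.

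H2-Q1, H2-Q2 and H2-T3, named after their values had been seen, were highest in DSS+BV 3. H2-Q2 was at 24.1, 52.5 and 40.7 CPM in the DSS mice and at 39.7, 113 and 232 CPM in the DSS+BV mice, and H2-Q1 was at 3.95, 8.46 and 12.2 CPM and at 8.64, 20.6 and 52.5 CPM. Both groups overlapped through DSS+BV 1, and the log2 fold changes were 1.71 and 1.73 (edgeR adjusted p = 0.365 and 0.394). Without DSS+BV 3 they were 0.97 and 0.84, and neither was called in any of the 6 fits with a library left out. H2-T3, the thymus leukaemia antigen of intestinal epithelium, was at 0.180, 39.4 and 2.27 CPM in the DSS libraries and at 3.89, 54.2 and 102 CPM in the DSS+BV libraries. It was high in DSS 2, DSS+BV 2 and DSS+BV 3, and its log2 fold change of 1.94 had a standard error of 1.64 (edgeR adjusted p = 0.652). It was 5.43 without DSS 2 and 1.06 without DSS+BV 3. In 12 of the 14 tested H2 class I chains, reads had been divided between genes in at least 1 library.

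The sum over 15 H2 class I chains is not changed by reads divided among these genes. It was 3219.7, 2155 and 4420.5 CPM in the DSS mice and 3305, 2388 and 3602 CPM in the DSS+BV mice. H2-K1 and H2-D1 together gave between 70.8% and 81.6% of it. The mean difference was -0.036 on the log2 scale (two-sided exact permutation test, p = 1, smallest possible 0.1), and the second mice were again the lowest of each group. Without DSS 3 the difference was 0.21 and without DSS+BV 2 it was 0.14.

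**Figure D5:**
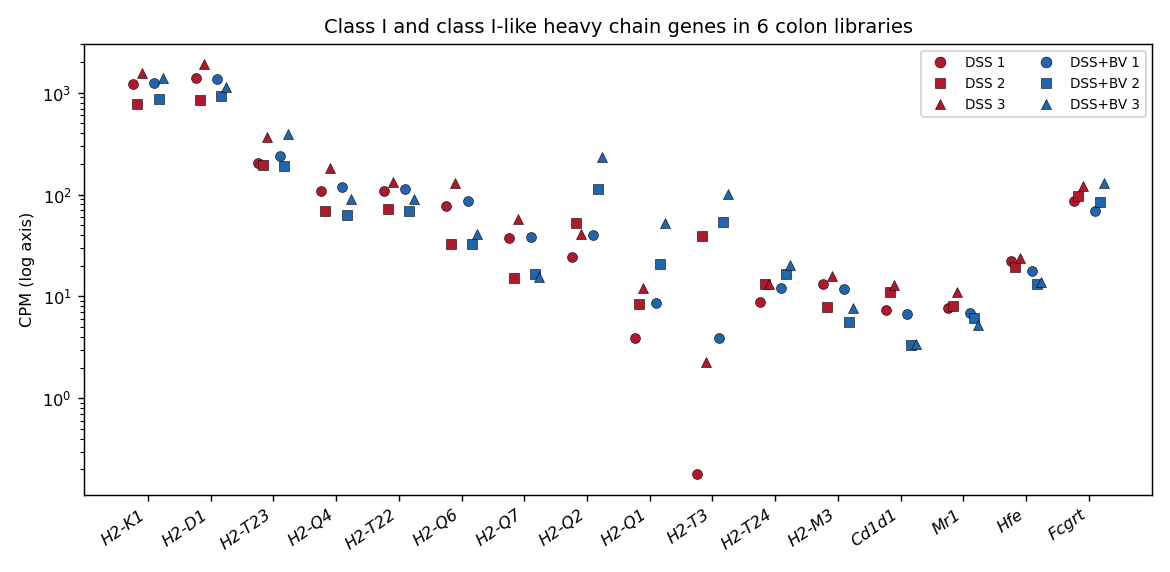
CPM of 16 of the 18 tested class I and class I-like heavy chain genes in the 6 libraries on a log axis, DSS in red and DSS+BV in blue, with the mouse number as the symbol. H2-K1 and H2-D1 lie highest, H2-T3 runs from 0.180 to 102 CPM, and red lies above blue without overlap in Cd1d1, Mr1 and Hfe.

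Receptors that bind class I molecules gave 8 tested genes of 13 listed. Cd8a, the coreceptor of cytotoxic T cells, was at 4.01, 5.72 and 6.29 CPM in the DSS mice and at 8.38, 6.94 and 8.41 CPM in the DSS+BV mice. Each DSS+BV mouse was above each DSS mouse in Cd8a, 1 gene of the 8, against 6.37% of all tested genes. The log2 fold change of Cd8a was 0.57 (standard error 0.25, edgeR adjusted p = 0.425). The partner chain Cd8b1, named after its values had been seen, was at 1.198, 2.24 and 1.57 CPM in the DSS mice against 1.85, 0.38 and 1.39 CPM, and its log2 fold change had the other sign, -0.47 (edgeR adjusted p = 0.767). Pirb and Lilrb4a, inhibitory receptors of myeloid cells, had log2 fold changes of -1.55 and -1.10 with overlap between the groups (edgeR adjusted p = 0.337 and 0.358). Of 8 tested genes on this list 0 were called. The 9 MHC class II genes were all below 0, with a median of -0.50, and 0 were called. Those of smallest p, H2-Oa and H2-Ab1, were at -1.24 and -0.52, and without DSS 3 at -0.36 and 0.085. Without DSS+BV 1 they were at -2.68 and -1.07. H2-Ab1, a chain of the classical class II molecule, was at 216, 94.3 and 399.7 CPM and at 269, 114 and 111 CPM, low in DSS+BV 3, the mouse with the highest H2-K1 of its group. Over all lists, 0 of 100 tested genes of the wider pathway were called, of 110 listed.

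These are bulk samples, in which fewer cells of a type and less RNA per cell cannot be told apart, so marker genes of the cell types are given beside them. Epithelial markers were high in every library, with all 10 tested and summed levels of 12447 to 14704 CPM in the DSS group and 15811 to 21113 CPM in the DSS+BV group. All 10 were above 0 in log2 fold change, with 0 called. Of the 10, 5 lay higher without overlap between the groups, against 6.37% of all tested genes. An edgeR unadjusted p under 0.05 was found in 5 of the 10, against 3.4% of all tested genes in that direction. All 8 neutrophil markers lay lower in the DSS+BV group without overlap, as 11.3% of all tested genes did. Of these 8 markers 6 were called, against 0.0892% of all tested genes, while 0 members were called. Their median log2 fold change was -3.43, and their summed level was 143 to 177 CPM in the DSS group and 12.3 to 24.6 CPM in the DSS+BV group. B and plasma cell markers, all 8 tested, summed to 558 to 1676 CPM in the DSS group and 248.7 to 1191 CPM in the DSS+BV group, highest in DSS 1, DSS 3 and DSS+BV 1. Of the T cell markers 9 of 10 were tested, 6 of them below 0 in log2 fold change, with a median of -0.22 and 0 called. They summed to 42.5 to 81.8 CPM and 39.6 to 88.6 CPM, those of natural killer and cytotoxic cells (5 of 8) to 16.4 to 38.9 CPM and 20.5 to 25.0 CPM, those of macrophages and monocytes (10 of 10) to 519 to 1105 CPM and 359 to 707 CPM, and those of dendritic cells (8 of 8) to 34.8 to 111 CPM and 27.2 to 77.2 CPM. Fibroblast markers, all 8 tested, had a median of -0.90 with 0 called, and 5 of 8 lay lower without overlap, against 11.3% of all tested genes. An edgeR unadjusted p under 0.05 was found in 7 of the 8, against 9.12% of all tested genes in the lower direction. In the 6 immune lists, 0 listed genes present in the table had 0 counts in any library. The summed T cell and cytotoxic markers were lowest in DSS 2 and DSS+BV 2, as the members were. By single gene this held in 4 of 9 T cell and 2 of 5 cytotoxic markers, beside 10 of 10 members and 9.54% of all tested genes. The summed macrophage markers were lowest in DSS 2 and DSS+BV 3, while the members lay above their mean in DSS+BV 3. For the B cell markers the lowest DSS+BV library depended on the measure. Their sum was lowest in DSS+BV 3 (248.7 CPM, against 270.0 in DSS+BV 2), and their mean log2 deviation in DSS+BV 2 (-2.24, against -1.91 in DSS+BV 3). In 5 of the 8 B cell markers DSS 2 and DSS+BV 2 were the lowest of their groups. The part of these cells in the levels of the members was not tested.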

How the data were processed

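RNA from 6 colons was sequenced on a DNBSEQ-T7, 1 library per mouse. The authors quantified genes with RSEM and deposited expected counts per gene, not scaled between libraries. The submitters' processing notes name HISAT2 2.1.0, Bowtie2 2.2.5, RSEM 1.2.8 and GRCm38.p6, without their roles. Values that are not whole, in 1573 genes (8.51%), arise where RSEM divides a read between genes.

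Expected counts were rounded. Library totals ran from 15293263 to 17254329. Genes were kept with filterByExpr (minimum count 10, minimum total 15), TMM factors scaled the library totals, and edgeR 4.0.16 (R 4.3.3) fitted 14579 genes with its quasi-likelihood method, with Benjamini-Hochberg adjustment. DESeq2 1.42.0, which the study used, was an alternative. Intervals are 95% intervals from the same fit. Subunit ratios (0.5 counts added) and the sum of class I chains were compared with two-sided exact permutation tests. Log2 CPM used a prior count of 2. The edgeR test was first run on simulated data. Figures were drawn with matplotlib 3.10.9.

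The members and the lists were chosen with earlier results of these data known. Named genes are the members, 8 partners or regulators (another fixed with them is not reported here), the 2 genes of smallest p of each list, since no list held a called gene, and the 10 genes of the closest profile. Mice of 1 group differed by more than counting noise, at 42.7 or more for chi-square divided by its degrees of freedom. The labels number the mice 1 to 3 in each group. Deviations of same-numbered mice correlated at 0.27, 0.25 and -0.30. The DSS+BV mouse that correlated best with DSS 1, DSS 2 and DSS 3 was number 1, 3 and 1. These few values cannot tell whether same-numbered mice were linked, so the main fit used the group alone. Alternatives were other tests, scaling factors, filters, a replicate block and each library left out.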

Additional observations from a re-analysis of the deposited data

How the results depend on the processing

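Under every alternative tried, 0 members and 0 other genes of the pathway were called in either direction: with DESeq2, every gene with a count, RLE or upper-quartile factors, at least 1 CPM in every library, a robust fit, the replicate number as a block, no threshold on the fold change, and each library left out. Signs near 0 turned. H2-K1 was at 0.018 with every gene with a count, 0.017 with the replicate block and 0.010 with DESeq2, and Irf1 was at 0.017, 0.034 and 0.011 under the same 3. B2m was at 0.0022 with the block, and Tapbp at -0.028 with upper-quartile factors. The block changed no call. With 1 library left out, log2 fold changes ran from -0.23 to 0.24 for H2-K1, -0.52 to 0.015 for H2-D1, -0.23 to 0.33 for B2m, -0.38 to 0.27 for Tap1, -0.37 to 0.074 for Tap2, -0.14 to 0.18 for Tapbp, -0.39 to 0.19 for Psmb9 and -0.58 to 0.32 for Nlrc5. They ran from -0.24 to 0.18 for Psmb5, -0.16 to 0.094 for Psmb7, -0.0064 to 0.23 for Psme1, -0.082 to 0.29 for Psme2, -0.16 to 0.28 for Irf1 and -1.07 to 0.085 for H2-Ab1. The log2 differences ran from -0.58 to 0.28 for Psmb8/Psmb5, -0.15 to 0.52 for Psmb9/Psmb6, 0.14 to 0.34 for Psmb10/Psmb7 and -0.31 to 0.21 for the summed H2 chains, whose block value was added after the data were seen. The cause was not tested. With 3 mice per group, a 2-fold lower level lay within the 95% interval for H2-D1, Tap1, Psmb8, Psmb9 and Nlrc5, and a 2-fold higher level for Tap1 and Nlrc5.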
